A study of Mus musculus with 6 samples.

Results

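The shortest H3K27me3 peaks of mouse C3H10T1/2 cells are described here, 939 of the 3999 peaks in the deposited H3K27me3 list (23.5%). They were selected on their listed length alone, with all peaks under 5 kb taken and no other criterion. C3H10T1/2 is a line of multipotent mesenchymal cells that was derived from embryos of the C3H strain. The cells carried a stably expressed H3.3 histone with a FLAG-HA tag, in a wildtype or a K36M mutant form, in which methionine takes the place of lysine 36, and were harvested at passages 10 to 15. All 6 libraries therefore came from cells with a tagged extra copy of H3.3, and each genotype was represented by 1 input, 1 H3K36me3 and 1 H3K27me3 library, with no replicate. The data are positions of called peaks on the mouse build mm9, in a list of 3999 peaks for H3K27me3 and a list of 7773 peaks for H3K36me3. Neither list names a genotype, a library or a height, so a peak cannot be assigned to wildtype or K36M cells, and how many reads it rests on, the depth, is unknown.

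H3K27me3 is the mark that Polycomb repressive complex 2 places on silent genes. Polycomb complexes can be recruited at a small site and the mark can then spread along the chromosome, which gives narrow peaks at some places and broad domains at others. H3K36me3 is laid down along the bodies of transcribed genes, and a nucleosome tail that carries it is a poor substrate for Polycomb repressive complex 2. Replacement of lysine 36 by methionine in H3.3 is known from chondroblastoma and lowers H3K36 methylation in cells that express it. For a short H3K27me3 peak the positions therefore bear on 2 plain questions. The first is whether it lies beside a broader H3K27me3 region or by itself, and the second is how near it lies to H3K36me3.

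Both lists are built from windows of 200 bp, and the short H3K27me3 peaks gathered at the lower end of the possible lengths. Their median length was 2.4 kb, with an interquartile range of 1.6 to 3.2 kb, from the list minimum of 1.2 kb up to 4.8 kb. Lengths of 1.2, 1.4 and 1.6 kb were held by 93, 88 and 95 peaks, and the number per length then declined to 24 at 4.8 kb. The H3K36me3 list behaved differently at this end, with 26 peaks at 1.2 kb and 61 at 4.8 kb. Peaks under 2 kb made up 36.6% of the short H3K27me3 peaks, and those from 4 kb to below 5 kb 14.9%. Together the 939 peaks covered 2.39 Mb, which was 1.00% of the bases under H3K27me3. The 24 peaks just inside the limit, at 4.8 kb, lay a median of 119 kb from a longer H3K27me3 peak, and the 20 peaks just outside it, at 5 kb, lay 207 kb from one. The plot of peak lengths shows no step at the limit.

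**Figure D1:**
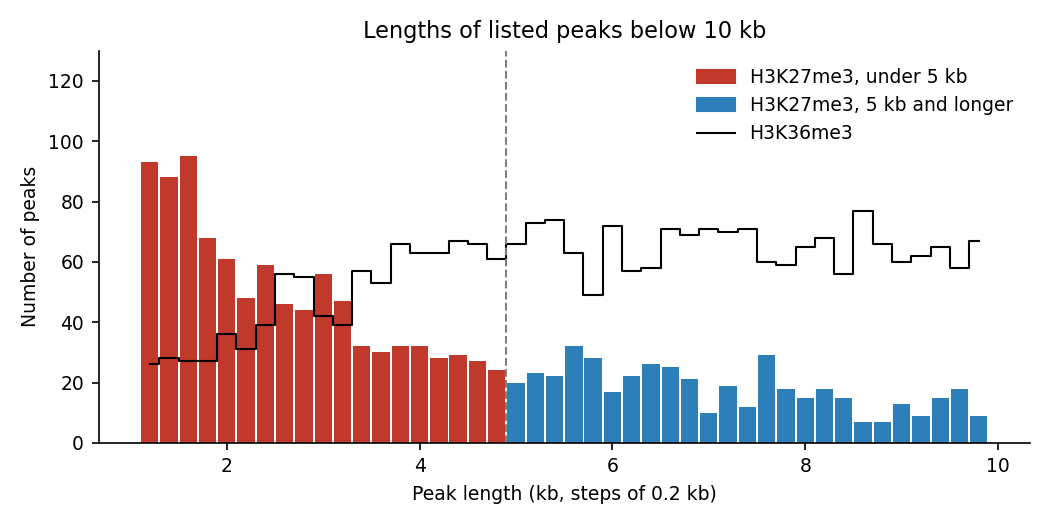
Number of peaks (vertical axis) at each listed length below 10 kb (horizontal axis, kb). Red bars are H3K27me3 peaks under 5 kb, blue bars longer H3K27me3 peaks, and the black line H3K36me3 peaks; the dashed line is the limit. H3K27me3 falls from 93 peaks at 1.2 kb to 24 at 4.8 kb, whereas H3K36me3 rises from 26 to 61.

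Under the distance limits used here, more of the short peaks were isolated than were satellites of longer ones. A longer H3K27me3 peak, of at least 5 kb, lay within 50 kb of 218 short peaks (23.2%, exact 95% interval 20.5 to 26.1), and these are called satellites below. No other H3K27me3 peak of any length lay within 200 kb of 335 short peaks (35.7%, 32.6 to 38.8), and these are called isolated. Between them were 54 peaks (5.75%) that had only another short peak within 50 kb and 332 peaks (35.4%) whose nearest H3K27me3 peak was 50 to 200 kb away. Over the whole list, 33.9% of the peaks had another of at least 5 kb within 50 kb, and 26.9% had none within 200 kb. The short peaks were thus less often satellites and more often isolated than the list as a whole. Which of both groups was the larger depended on the limits, since 14.7% had no other H3K27me3 peak within 500 kb. A longer peak lay within 100 kb of 37.0% (33.9 to 40.1), an interval that overlapped that of the isolated share. Peaks are positions in 1 list and not replicates, so no test was made between length classes. The intervals cover counting error only and treat peaks as independent, which peaks that lie near each other may not be.

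The median short peak lay 170 kb from the nearest longer peak (95% interval 149 to 190.0 kb, interquartile range 55.0 to 461 kb). For H3K27me3 peaks of 5 to 100 kb the median distance to another peak of at least 5 kb was 89.2 kb (80.8 to 99.4), and for those of 100 kb and longer it was 83.2 kb (72.4 to 101). These 2 classes had nearly the same share with a longer neighbour within 50 kb, 36.9% and 38.1%. The share of isolated peaks was 24.1% and 24.6% in them. A peak of 5 to 10 kb, the next length class up, fell between the short peaks and the rest, with 32.2% within 50 kb of another longer peak (27.9 to 36.8) and 30.7% isolated (26.4 to 35.2, which overlapped the interval of the short peaks). Within the short class the share of satellites was 20.9% under 2 kb, 23.3% from 2 kb, 22.3% from 3 kb and 30% from 4 kb upward. The interval of the last, 22.6 to 38.3%, overlapped the others.

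**Figure D2:**
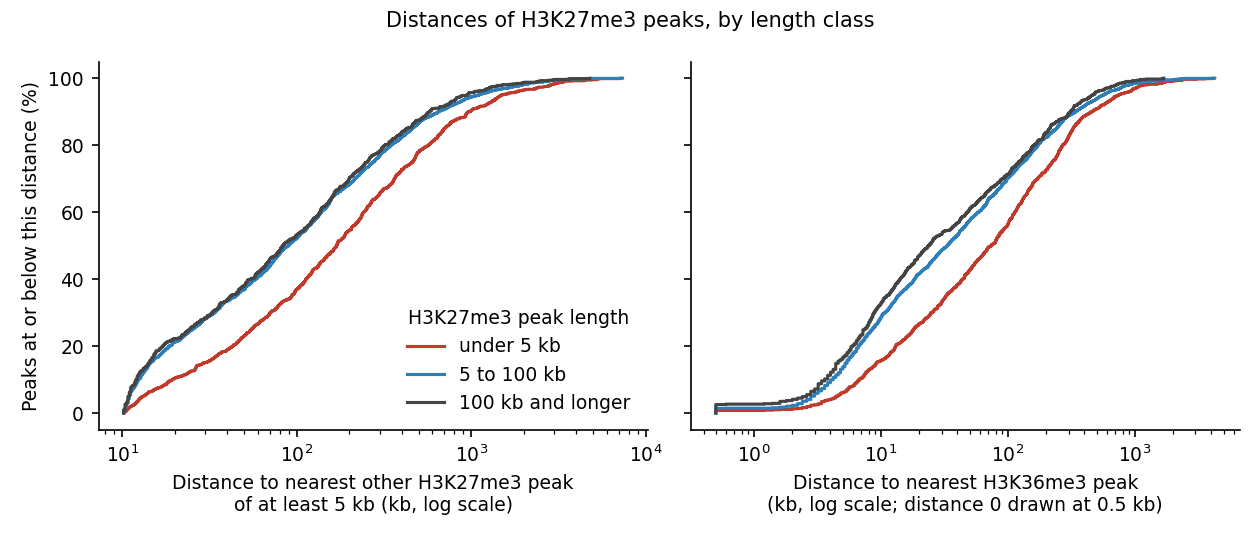
Share of H3K27me3 peaks (vertical axis, %) at or below each distance (horizontal axes, kb, log scale) to the nearest other H3K27me3 peak of at least 5 kb (left) and to the nearest H3K36me3 peak (right, distance 0 drawn at 0.5 kb), with 1 line per length class. The line of peaks under 5 kb is to the right of the other lines in both panels, with medians of 170 and 73.8 kb.

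Although few short peaks were satellites, they were denser beside longer peaks than far from them once the amount of sequence at each distance was taken into account. No peak of the list lies closer than 10.2 kb to another. Up to 20 kb away from a longer peak there were 1.92 short peaks per Mb (97 peaks in 50.6 Mb, counted from the smallest gap outward). The next bins, which ended at 50, 100 and 200 kb, held 0.878, 0.688 and 0.584 short peaks per Mb. Those that ended at 500 and 1000 kb held 0.438 and 0.280 per Mb, and farther out there were 0.133 per Mb (90 peaks in 676 Mb). The density within 50 kb was 4.36 times that beyond 200 kb (1.16 against 0.267 per Mb, exact conditional 95% interval of the ratio 3.69 to 5.15). Sequence far from any longer peak is more plentiful than sequence near one, so that both statements hold together. These densities were counted for short peaks only, so whether longer peaks differ from them in this was not tested.

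The satellites did not gather beside the broadest domains. The nearest longer peak of a satellite was 31.5 kb long at the median, with quartiles of 12.8 and 96.9 kb. The median over all 3060 longer peaks was 45.4 kb, with quartiles of 16 and 109 kb. It was 100 kb or longer for 53 of the 218 satellites (24.3%, 18.8 to 30.6), and 27.4% of all longer peaks were that long. Seen from the longer peaks, 179 of the 2222 peaks of 5 to 100 kb (8.06%) and 60 of the 838 of 100 kb and longer (7.16%) had a short peak within 50 kb. A longer peak within 50 kb on both sides was found for 18 satellites. At the smallest gap the list allows, 10.2 kb, there were 3 short peaks. From there to 12 kb the density was 2.80 short peaks per Mb (27 peaks, exact Poisson 95% interval 1.85 to 4.08), and from 12 to 20 kb it was 1.71 per Mb (70 peaks, 1.33 to 2.16), so that the intervals overlapped.

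The next longer peak was 100 kb or longer on both sides for 63 of the 924 short peaks that had one on each side (6.82%, 5.28 to 8.64). The share was 7.76% for peaks of 5 to 100 kb (6.68 to 8.96), an interval that overlapped that of the short peaks, and 10.4% for the longest class (8.37 to 12.6). The tightest case among the short peaks was a peak of 2.4 kb on chromosome 9 (107193801 to 107196200), which lay 16.8 kb from a domain of 139 kb and 43.8 kb from a domain of 192 kb. An H3K36me3 peak of 3.2 kb was 5.6 kb away from it. On chromosome 5, a peak of 3 kb (67345801 to 67348800) lay 26 kb and 88.2 kb from domains of 226 and 207 kb, with the nearest H3K36me3 at 304 kb. Another peak of chromosome 5, of 1.6 kb (114798801 to 114800400), lay 13.8 and 119 kb from domains of 102 and 142 kb and 8.2 kb from H3K36me3. These 3 satellites thus had H3K36me3 as near as 5.6 kb and as far as 304 kb.

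Few short peaks had another short peak close by, and the same held for longer peaks. The next short peak was less than 50 kb away for 59 of the 939, in 28 pairs and 1 run of 3 peaks. A short peak lay within 50 kb of 8.06% of the peaks of 5 to 100 kb and of 7.16% of those of 100 kb and longer. The run of 3 was on chromosome 4 (141382401 to 141446800), spanned 64.4 kb, held peaks of 1.2 to 4 kb and lay 120 kb from the nearest longer peak. The widest pair was on chromosome 18 (3610201 to 3661600) and spanned 51.4 kb. The next widest, with a span of 50 kb, was on chromosome 6 (90365001 to 90415000), and neither pair had a longer peak inside. Of the H3K27me3 peaks next to a short peak on either side, 26.4% were short themselves (24.5 to 28.5), against 23.1% next to peaks of 5 to 100 kb (21.9 to 24.4) and 21.1% next to peaks of 100 kb and longer (19.2 to 23.2). Over the whole list 23.5% of the peaks were short. A pair of adjacent short peaks enters the first of these shares from both ends, so its interval is too narrow. Whether the shares differ was not tested. In each length class, most of the next H3K27me3 peaks were thus of at least 5 kb.

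The most isolated short peaks lay megabases from any other H3K27me3. The farthest was a peak of 1.2 kb on chromosome X (126004201 to 126005400), 4.46 Mb from the nearest H3K27me3 peak. It was followed by a peak of 4.6 kb on chromosome 12 (47917801 to 47922400) at 3.49 Mb. A peak of 1.2 kb on chromosome 13 (91027201 to 91028400) was 3.43 Mb away. A second one on chromosome 12, of 2 kb (62624001 to 62626000), was 3.404 Mb away, and a peak of 2.8 kb on chromosome 6 (137267801 to 137270600) was 3.39 Mb away. These 5 differed in their distance to H3K36me3. The chromosome 13 peak had an H3K36me3 peak of 4.2 kb at 34.8 kb and the chromosome 6 peak had one of 49.4 kb at 148 kb, whereas for the other 3 the nearest was at 1.73 Mb or farther. In all, 139 short peaks (14.8%, 12.6 to 17.2) had no other peak of either mark within 200 kb. The same held for 7.74% of the peaks of 5 to 100 kb (6.66 to 8.93) and 5.49% of those of 100 kb and longer (4.05 to 7.25).

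Short H3K27me3 peaks also lay farther from H3K36me3 than longer ones did. An H3K36me3 peak lay within 10 kb of 149 short peaks (15.9%, 13.6 to 18.4), including those that shared bases with it, where the whole list had 26.7%. The share was 28.8% for peaks of 5 to 100 kb (26.97 to 30.8) and 33.1% for those of 100 kb and longer (29.9 to 36.4). The median distance to H3K36me3 was 73.8 kb for short peaks (61.2 to 85.4), 33.2 kb for peaks of 5 to 100 kb (29 to 37.4) and 23.7 kb for the longest class (19.4 to 30). H3K36me3 was more than 200 kb away for 257 short peaks (27.4%), and for 17.7% and 16.2% of the other classes.

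Most of the change with length lay between the classes below 20 kb. Peaks of 5 to 10 kb had 20.9% within 10 kb of H3K36me3 (17.2 to 24.9), an interval that overlapped that of the short peaks. From 10 kb upward the share stayed between 30.1 and 33.1% in each of 4 classes. Within the short class it did not follow length, being 16.6% under 2 kb and 16.4% from 4 kb upward. A longer peak itself fills sequence between its neighbours that a short one leaves free, and the part of this in the differences between length classes was not tested. Counted by single edges of peaks that shared no base, 8.70% of the 1862 edges of short peaks had H3K36me3 within 10 kb, against 15.4% for peaks of 5 to 100 kb and 17.01% for the longest class.

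Bases of both marks were listed together at 8 short peaks (0.852%, 0.369 to 1.67), where the whole list had 1.43%. Among peaks of 5 to 10 kb there was none in 450, which allows a share of up to 0.816% by the same exact interval. The 8 peaks were 1.4 to 2.8 kb long, and 7 of them lay wholly inside an H3K36me3 peak. Chromosome 2 carried 3 of them. A peak of 1.6 kb (69587001 to 69588600) lay in an H3K36me3 peak of 21.4 kb, with a longer H3K27me3 peak 28.8 kb away. One of 2.8 kb (75504201 to 75507000) lay in an H3K36me3 peak of 11 kb, 65 kb from an H3K27me3 domain of 321 kb. The third, of 1.4 kb (113592201 to 113593600), lay in an H3K36me3 peak of 11.6 kb.

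On chromosome 5 a peak of 2 kb (65999001 to 66001000) lay in an H3K36me3 peak of 61.6 kb, and on chromosome 7 a peak of 1.6 kb (125275401 to 125277000) in one of 83.2 kb. The only isolated ones were on chromosome 4. A peak of 1.4 kb (108488001 to 108489400) lay in an H3K36me3 peak of 17.8 kb and was 783 kb from other H3K27me3. The other (3017001 to 3018600) lay in an H3K36me3 peak of 2.2 kb that ended at the same base. Each was the first peak of its list on that chromosome by position. The last of the 8, on chromosome 7 (106396401 to 106397800), shared 1.2 of its 1.4 kb with an H3K36me3 peak of 1.8 kb. In 6 of these 8 places a short H3K27me3 peak thus sat within a much longer H3K36me3 peak, and in 2 both marks were short. Neither list names a genotype, so shared bases need not mean both marks in the same cells.

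The 931 short peaks that shared no base with H3K36me3 kept at least 1.2 kb from it, and 3 of them lay closer than 2 kb. The nearest was a peak of 2.2 kb on chromosome 17 (17484401 to 17486600), 1.2 kb from an H3K36me3 peak that was itself 1.2 kb long, with a longer H3K27me3 peak at 10.8 kb. The next were a peak of 1.2 kb on chromosome 11 (110927801 to 110929000) at 1.4 kb and a peak of 4.6 kb on chromosome 8 (98381401 to 98386000) at 1.6 kb. Peaks of 1.4 kb on chromosome 1 (154611401 to 154612800) and of 2.2 kb on chromosome 6 (29343801 to 29346000) were both 2 kb away. At the other end, the chromosome X peak named above was 4.11 Mb from H3K36me3. A peak of 1.8 kb on chromosome 1 (116634601 to 116636400) was 3.56 Mb away and one of 1.4 kb on chromosome 2 (97307001 to 97308400) 3.03 Mb. The remaining 2 of the 5 farthest were on chromosome 4 (76471401 to 76473600, 2.42 Mb) and chromosome 6 (59195401 to 59199000, 2.35 Mb). All 5 of the farthest were isolated from other H3K27me3 as well, by 298 kb in the case of the chromosome 4 peak and by at least 2.44 Mb in the others.

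Nearness to longer H3K27me3 and nearness to H3K36me3 went together. H3K36me3 lay within 50 kb of 120 of the 218 satellites (55.0%, 48.2 to 61.8) and of 99 of the 335 isolated peaks (29.6%, 24.7 to 34.8). Within 10 kb these shares were 23.9% (18.4 to 30.1) and 10.1% (7.13 to 13.9). The median distance to H3K36me3 was 41.5 kb for satellites and 133 kb for isolated peaks. Densities were then counted per Mb outside both marks, at least 10.2 kb from longer H3K27me3, for the 931 short peaks without shared bases. They were highest 5 to 10 kb from H3K36me3, at 1.89 per Mb, and fell to 0.113 per Mb within 2 kb and 0.199 per Mb beyond 200 kb. Over all sequence outside H3K36me3, short peaks had 0.104 per Mb within 2 kb and 1.24 at 2 to 5 kb. They had 1.63 at 5 to 10 kb, their highest value, and 0.0683 beyond 1000 kb. Both longer classes, counted in this way, were highest at 2 to 5 kb and lower within 2 kb and far out. Peaks of 5 to 100 kb had 0.657 per Mb within 2 kb, 6.62 at 2 to 5 kb and 0.0805 beyond 1000 kb. For the longest class these values were 0.380, 2.77 and 0.0146 per Mb. At 5 to 10 kb from H3K36me3 there were 3.71 short peaks per Mb if a longer H3K27me3 peak was also within 50 kb (33 peaks in 8.88 Mb), and 1.32 per Mb if the nearest was over 200 kb away (28 peaks in 21.1 Mb). Beyond 200 kb from H3K36me3 the same pair was 0.813 and 0.146 per Mb. In each of the 6 classes of distance to H3K36me3, the density of short peaks was thus higher nearer to longer H3K27me3, although the class within 2 kb held 3 peaks in all.

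**Figure D3:**
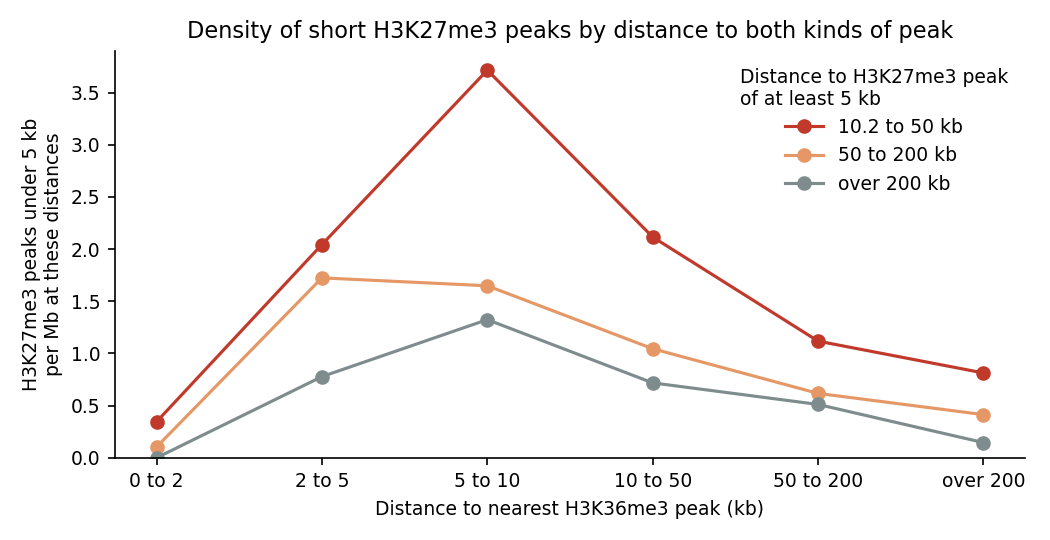
Short H3K27me3 peaks per Mb of sequence (vertical axis) by distance to the nearest H3K36me3 peak (horizontal axis, kb), with 1 line for each class of distance to the nearest H3K27me3 peak of at least 5 kb. Peaks that share bases with H3K36me3 are left out. The line for 10.2 to 50 kb is the highest in every class and reaches 3.71 per Mb at 5 to 10 kb.

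H3K36me3 often stood between a short peak and the nearest longer H3K27me3 peak. This was so for 520 of the 939 short peaks (55.4%, 52.1 to 58.6), close to the 51.9% of the whole list. It depended on the distance to be crossed. Among the short peaks 10.2 to 20 kb from a longer one, 4 of 97 (4.12%, 1.13 to 10.2) had H3K36me3 in between. The share was 32.5% from 20 to 50 kb, 45.0% from 50 to 100 kb, 53.6% from 100 to 200 kb and 77.3% beyond that. For all satellites it was 43 of 218 (19.7%, 14.7 to 25.6). At 100 to 200 kb the share of short peaks was below that of peaks of 5 to 100 kb (67.6%, 62.5 to 72.4, against 45.7 to 61.4 for the short peaks). At the other distances the intervals of these classes overlapped.

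The short peaks were spread over all 20 chromosomes. They made up 16.3% of the H3K27me3 peaks on chromosome X and 16.4% on chromosome 17, the lowest shares, and 30.8% on chromosome 18, the highest (22.3 to 40.5). Per Mb of span they ranged from 0.0999 on chromosome X (16 peaks) to 0.655 on chromosome 19. Satellites made up 17 of the 33 short peaks of chromosome 17 (51.5%) and 0 of the 16 of chromosome X, which allows a share of up to 20.6% by the exact interval. On chromosome X 12 of the 16 were isolated (75%). A lower share of satellites than among peaks of 5 to 100 kb was seen in 19 of 20 chromosomes, with chromosome 17 as the exception. The isolated share was higher in 19 of 20, with chromosome 19 as the exception, and the share within 10 kb of H3K36me3 was lower in all 20. Against peaks of 5 to 10 kb the satellite share was lower in 17 of 20 chromosomes, but the share near H3K36me3 in only 11 of 20. In bins of 5 Mb, 405 of 534 held a short peak. The richest, on chromosome 10 (80000001 to 85000000), held 10 of them beside 14 longer H3K27me3 and 41 H3K36me3 peaks, with 2 satellites and 2 isolated peaks among the 10.

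**Figure D4:**
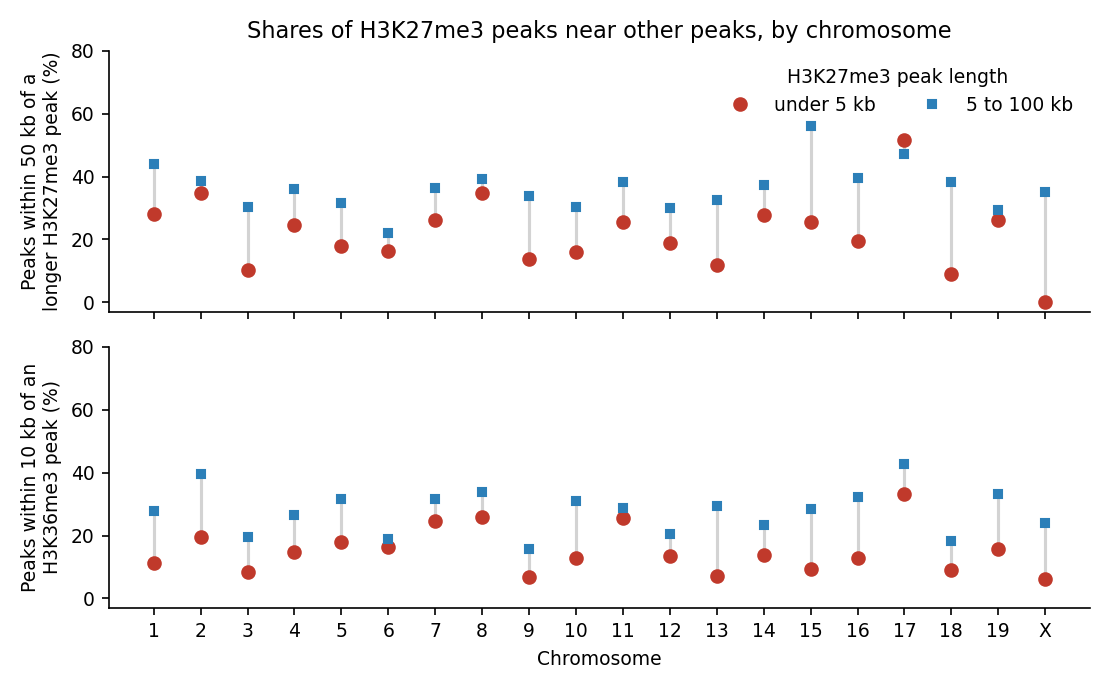
Share of H3K27me3 peaks within 50 kb of another H3K27me3 peak of at least 5 kb (top, %) and within 10 kb of an H3K36me3 peak (bottom, %), by chromosome, for peaks under 5 kb (red circles) and of 5 to 100 kb (blue squares). The red circle is below the blue square in 19 of 20 chromosomes at the top and in all 20 at the bottom.

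The order of the lines in the H3K27me3 list was not by position, and short peaks were unevenly spread over it. What the lines are ordered by is not given in the sources used here, so the order is described without a meaning. Successive lines rose in position on the same chromosome in 106 of 3998 cases, against 7753 of 7772 in the H3K36me3 list. Short peaks made up 15.5% of the first 399 lines (12.1 to 19.5) and 13.2% of the next 400. From line 2000 onward they made up 28.0 to 29.2% of each block of 400. The first 1999 lines held 364 short peaks and the last 2000 held 575, and their positions differed. An H3K36me3 peak was within 10 kb of 22.3% of the former (18.1 to 26.9) and 11.8% of the latter (9.30 to 14.8). Satellites made up 27.5% (22.9 to 32.4) and 20.5% (17.3 to 24.1), whose intervals overlapped.

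**Figure D5:**
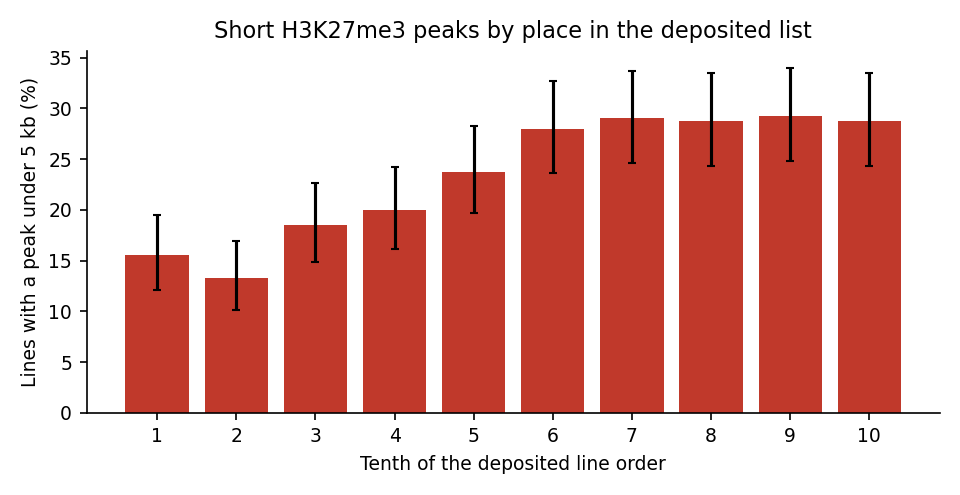
Share of lines of the H3K27me3 list with a peak under 5 kb (vertical axis, %), by successive blocks of the deposited line order (horizontal axis, 10 blocks). Bars are shares of 399 or 400 lines and whiskers exact 95% intervals; the share rises from 15.5% in the first block to 28.8% in the last.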

How the data were processed

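The labels describe ChIP-seq of micrococcal nuclease digested chromatin, with 5% kept as input. Reads were aligned with Bowtie 1.0.0 to mm9, per the submitters' processing notes. The deposited lists hold chromosome, start and end only. How peaks were called, with which settings and with or without input, was not given in the sources used here. Every start is a multiple of 200 bp and every end is 1 bp below one, so ends were taken as included, and positions are printed counted from 1. Distances run from edge to edge, and sharing needs 1 bp. Shares carry exact (Clopper-Pearson) 95% intervals and medians binomial order-statistic intervals. Densities divide peaks by the bases at that distance within the span of both lists on each chromosome. Computations used Python 3.11.15, pandas 2.3.3 and scipy 1.17.1, and the distance code was tested on simulated data (1250 comparisons, 0 wrong).

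The length limit, the classes and the alternatives were chosen with earlier results of these data known. Regions named were all that share bases with H3K36me3, the 5 farthest from H3K27me3, the 5 farthest from and the 5 nearest to H3K36me3, the 3 largest runs, the 3 tightest between domains, and the richest bin of 5 Mb. Finer length classes, densities by both marks, hosts, neighbours, domains on both sides, far-from-both counts and line order were added after the data were seen. Genes and sequences were not assigned, because the gene and promoter tables at hand are on GRCm38.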

Additional observations from a re-analysis of the deposited data

How the results depend on the processing

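Of 37 alternatives, 16 stayed within the interval of the value reported (for counts, within 1.5 times). The others moved mostly because they redefine the distance or length asked about. A limit of 3 kb left 602 short peaks. The satellite share was 10.4% within 20 kb, 37.0% within 100 kb, 15.4% with longer peaks of at least 20 kb and 6.50% with those of at least 100 kb. It was 27.5% in the first 1999 and 20.5% in the last 2000 lines, an alternative chosen after seeing the data. The median distance to a longer peak was 280.2 kb with longer peaks of at least 20 kb and 205 kb from centre to centre. The isolated share was 54.3% at 100 kb and 14.7% at 500 kb. Satellites were the larger group where only the isolated limit was moved, to 500 kb. With only the satellite limit moved, to 100 kb, the satellite share was 37.0% (33.9 to 40.1). The isolated share was then 35.7% (32.6 to 38.8), and the intervals overlapped. The ratio of densities was 7.25 within 20 kb, 6.15 against beyond 500 kb and 3.35 with longer peaks of at least 20 kb, and so above 1 in each. The share near H3K36me3 was 0.852% within 1 kb, 42.8% within 50 kb, 22.3% in the first 1999 and 11.8% in the last 2000 lines. The median distance to H3K36me3 was 85.8 kb from centre to centre. H3K36me3 stood between a short peak and the nearest longer one in 67.8% with longer peaks of at least 20 kb and in 19.7% of satellites. Joining H3K36me3 peaks over gaps up to 10.2 kb raised the peaks sharing bases from 8 to 11. The lists hold no heights and depth is unknown, so no other height or significance limit could be tried. No paired analysis was possible because neither list ties a peak to a library, and a mark has 1 library per genotype.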

Other observations

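Surroundings were measured over 500 kb on either side. Around short peaks they held less of both marks at the median than around longer peaks, but the interquartile ranges overlapped. H3K27me3 covered a median of 7.12% of this sequence around short peaks (interquartile range 0.960 to 18.3%). It covered 11.0% around peaks of 5 to 100 kb (3.04 to 23.4%) and 13.7% around peaks of 100 kb and longer (3.985 to 24.9%). H3K36me3 covered 8.30% (3.69 to 15.0%), 10.1% (4.86 to 16.1%) and 9.53% (4.59 to 15.5%), without a steady rise with length. No other H3K27me3 was listed in it for 14.7% of the short peaks, 8.46% of the middle class and 9.31% of the longest, and no H3K36me3 for 9.16%, 6.12% and 4.06%.

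The mark of the immediate neighbours was also counted. Among the 929 short peaks without shared bases that had a peak of either mark on both sides, the next peak was H3K36me3 on both sides for 38.5%, H3K36me3 on one side and H3K27me3 on the other for 47.9%, and H3K27me3 on both sides for 13.6%. For peaks of 5 to 100 kb these shares were 36.4%, 46.7% and 16.9%, and for peaks of 100 kb and longer 33.8%, 49.7% and 16.5%. No test was made of these differences.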
